A study of Mus musculus with 8 samples.

Results

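The genes described here are named for proteins of the mitochondrial ribosome. The comparison is between cultures of myeloid cells with and without added trefoil factor 2 (TFF2). TFF2 is a secreted peptide of the stomach that memory T cells of the spleen also make. Members were the genes whose symbol begins with Mrpl (named for the large subunit) or Mrps (named for the small subunit) followed by a digit. There were 74 of them, 47 Mrpl and 27 Mrps genes, among the 12393 genes with a probe set of their own on the array. Where several probe sets carried the symbol of a gene alone, the brightest by its mean over 8 arrays stood for the gene. All 74 had a mean signal above the background level in both groups. That level, 3.42 on the log2 scale, is exceeded by only the top 5% of 39 genes that belong to other tissues. Mrps10 and Mrps27 were not measured, and Mrpl30 and Mrpl53 had only probe sets shared with another gene.

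All animals were male Tff2-/- mice of the C57BL/6 background, aged 16 weeks, so neither group made its own TFF2. The mice drank 3% dextran sodium sulfate, which injures the colon, for 5 days, were then returned to plain water and were killed 14 days later. Gr1+Cd11b+ cells, the immature myeloid cells of the study, were sorted from the spleen of each of 4 mice and divided between a pair of cultures of 7 days. The control culture of each mouse (labelled ctrl) held 5 nM Csf2, the myeloid growth factor GM-CSF, and its partner (labelled tr) held the same Csf2 with 3 µM mouse recombinant TFF2 (rTFF2). The dose of GM-CSF is the one in the labels, and the study's methods state another. RNA was read after a week in culture, so the arrays show the cells after culture and not as they left the spleen. Both cultures of a mouse carry its animal number in the labels, and differences were taken within the mouse (n = 4 mice).

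Mitochondria keep their own ribosome to translate the few membrane proteins of the respiratory chain and ATP synthase that mitochondrial DNA encodes. Its rRNAs come from mitochondrial DNA, whereas every protein of both subunits is encoded in the nucleus, made in the cytosol and imported. The small subunit decodes the mRNA and the large subunit joins the amino acids. Some of the proteins have bacterial counterparts and others exist only in mitochondria. Dividing myeloid progenitors are known to build mitochondria, whereas neutrophils carry few.

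The cultures differed in far more than these genes. With the mouse as a block, limma called 1791 of the 12393 genes higher and 1647 lower with rTFF2, and with each array centred on its median these became 1524 and 2103. Of 8 measured myeloid markers 5 rose and 0 fell, and the log2 of their summed signal was 15.60 to 15.88 in the control cultures and 16.02 to 16.16 with rTFF2. Itgam, which encodes Cd11b, had a mean log2 signal of 12.35 in the control and 12.72 in the rTFF2 cultures. All 12 neutrophil markers rose, with summed levels of 15.08 to 15.94 against 16.31 to 16.54. Of 10 basophil and mast cell markers 8 rose, from 7.69 to 8.997 up to 12.06 to 12.93. Among those that rose, Il4 was below background in both groups, and Ms4a2 and Fcer1a were above it only with rTFF2. Of 10 dendritic cell markers 9 fell, from 14.71 to 15.08 down to 12.82 to 13.38. Cd209a, among those that fell, was below background in both groups. Among T and NK cell markers 1 of 9 was above background, among B cell markers 2 of 6 and among erythroid markers 0 of 5, and the summed levels were 5.79 to 7.41 against 6.55 to 7.63, 6.56 to 6.90 against 6.80 to 7.14, and 4.65 to 4.69 against 4.61 to 4.66. The log2 difference between the 3′ and 5′ control probe sets of Actb, a sign of RNA integrity, was 0.53 ± 0.09 (SD, n = 4) in the control and 0.70 ± 0.05 in the rTFF2 cultures, and it was larger with rTFF2 in 4 of 4 mice. For Gapdh the same difference was 0.22 ± 0.07 and 0.26 ± 0.04.

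Mitochondrial ribosomal protein genes fell modestly or did not pass the test, and none rose. With rTFF2, 10 of 47 Mrpl and 6 of 27 Mrps genes fell, or 21.6% of the 74, and 0 rose (limma with the mouse as a block, adjusted p below 0.05 over all 22626 probe sets). At an unadjusted p below 0.05, 30 were lower and 0 higher. Over all genes 13.3% were called lower and 14.5% higher, and over the 7467 genes above background, 18.5% and 22.8%. A gene was placed among the latter by its mean in either group, whereas all 74 members were above background in both. Some of the 7467 therefore entered only through the group where they were high, as Fcer1a and Ms4a2 did. The share of members that fell was near that of these genes, while the share that rose was 0 against 22.8%. The median log2 difference was -0.17 for Mrpl and -0.12 for Mrps genes, or 88.9% and 92.0% of the control signal, against -0.03 for all genes and 0.02 for genes above background. The fitted difference was below 0 for 69 of the 74, or 93.2%, against 55.5% of all genes and 47.0% of those above background. In bulk RNA, fewer cells of a type and less RNA per cell cannot be told apart.

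The calls of single genes were less stable than the direction. Without the mouse as a block, 12 members fell and 0 rose, 11 of them among the 16. That was 16.2% of members, against 11.2% of all genes and 15.4% of genes above background called lower. Higher calls there were 12.4% of all genes and 19.6% of genes above background. Without mouse 1 or without mouse 3 the count of fallen members was 3, without mouse 2 it was 11 and without mouse 4 it was 8. As shares of the members these were 4.05%, 4.05%, 14.9% and 10.8% without mice 1, 3, 2 and 4, against 8.05%, 8.03%, 11.4% and 9.30% of all genes and 12.1%, 11.9%, 16.9% and 14.1% of genes above background. With any mouse left out, members were thus called lower less often than genes above background. Without mouse 1 or mouse 3 their share was also below that of all genes. In the fit of all 4 mice it was above both. Mrpl16, Mrpl37 and Mrps23 fell in each of the 4 fits with a mouse left out. With the Actb difference as a covariate beside the mouse, 0 members passed in limma, 8 were lower and 0 higher at an unadjusted p below 0.05, 60 of 74 fitted differences were below 0, and the medians were -0.19 for Mrpl and -0.14 for Mrps genes. In that fit 3.95% of all genes and 6.25% of genes above background were called lower, and 4.22% of all genes higher. The part of the Actb difference and of the marker lists above in these results was not tested.

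**Figure D1:**
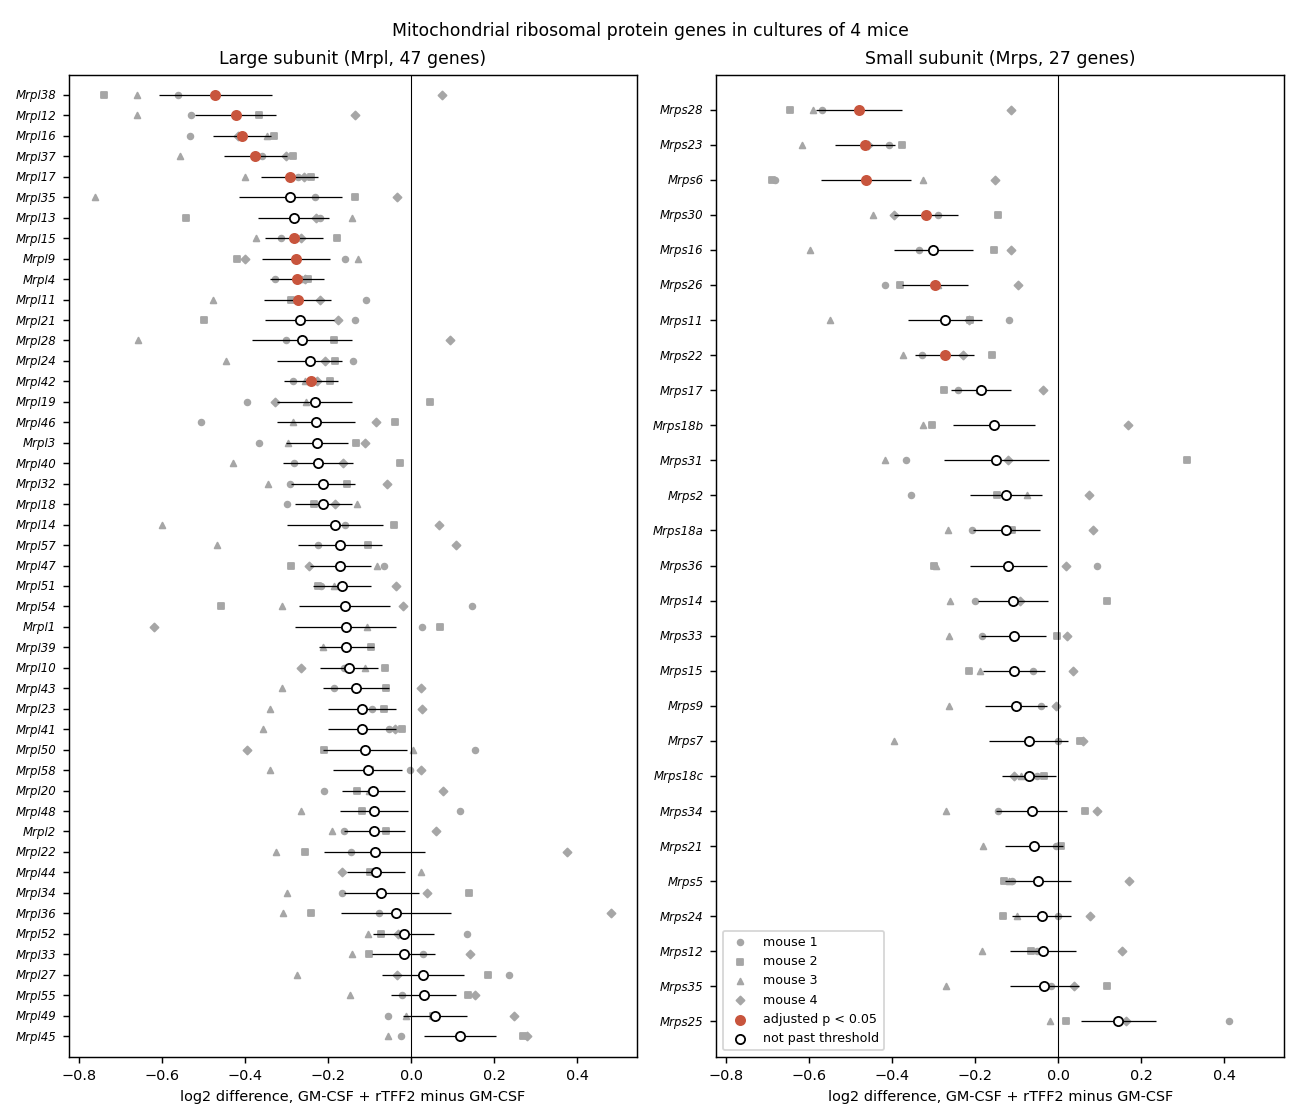
Log2 difference, rTFF2 minus control culture, of the 47 Mrpl genes on the left and the 27 Mrps genes on the right. Large circles show the fitted difference with its standard error, filled for the 16 genes with an adjusted p below 0.05, and small grey symbols show the 4 mice. All filled circles and 69 of the 74 large circles lie left of 0.

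Among large subunit genes, Mrpl12 had the largest change that held in every mouse. It encodes the stalk protein that recruits translation factors to the ribosome. Its log2 signal was 9.70, 9.68, 9.60 and 9.29 in the control cultures of mice 1 to 4 and 9.17, 9.31, 8.94 and 9.15 with rTFF2. Each mouse was lower with rTFF2, although the control of mouse 4 lay below the rTFF2 culture of mouse 2, so that the groups overlapped. The log2 difference was -0.42 (SE 0.10, adjusted p = 0.0196), or 74.6% of the control signal. Mrpl16, the counterpart of a bacterial protein near the site of peptide bond formation, gave 8.38, 8.36, 8.06 and 8.09 in the control cultures and 7.84, 8.03, 7.71 and 7.67 with rTFF2. The highest rTFF2 culture lay just under the lowest control. Mrpl16 fell by 0.41 (SE 0.07, adjusted p = 0.00651), and it was the only Mrpl gene past a threshold of 0.01.

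Mrpl37, a protein found only in mitochondria, was 6.44, 6.35, 6.32 and 6.31 in the control cultures and 6.08, 6.07, 5.76 and 6.01 with rTFF2. The groups did not overlap, and mouse 3 showed the largest drop. The difference was -0.38 (SE 0.08, adjusted p = 0.0117). Mrpl17, the counterpart of a bacterial protein near the exit of the peptide tunnel, was 10.13, 9.88, 10.22 and 10.14 without and 9.85, 9.64, 9.82 and 9.89 with rTFF2. Mouse 2 had the lowest signal in both groups, and its control lay at the level of the rTFF2 culture of mouse 4. The difference of Mrpl17 was -0.29 (SE 0.07, adjusted p = 0.0201), and -0.11 (adjusted p = 0.211) with the probe sets of the gene averaged. Its only other probe set had a mean log2 signal of 2.54, below background, and averages here include such probe sets. Mrpl15, a core protein with a bacterial counterpart, was 9.29, 9.29, 9.41 and 9.20 without and 8.98, 9.11, 9.04 and 8.94 with rTFF2, with no overlap. It fell by 0.28 (SE 0.07, adjusted p = 0.0242), and by 0.19 (adjusted p = 0.0512) with its probe sets averaged. That average includes a probe set with a mean of 2.28, below background. The other large subunit genes that fell were Mrpl4, Mrpl9, Mrpl11, Mrpl38 and Mrpl42, by 0.24 to 0.47. Of these Mrpl38 had the largest change of any Mrpl gene, -0.47 (adjusted p = 0.0436), and it was lower in 3 of 4 mice: 5.47, 5.58 and 5.10 in mice 1 to 3 became 4.91, 4.84 and 4.44, whereas mouse 4 had 5.06 and 5.13. Its call was lost without the block (adjusted p = 0.0741), as was that of Mrpl42 (adjusted p = 0.0719). With the probe sets of each gene averaged, Mrpl9, Mrpl38 and Mrpl42 did not pass. The other probe set of Mrpl42 had a mean of 1.28, below background.

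Among small subunit genes Mrps28, which carries a domain related to a bacterial ribosomal protein, had the largest change. Its signal was 8.06, 8.15, 7.79 and 7.48 in the control cultures and 7.49, 7.50, 7.20 and 7.37 with rTFF2. All mice were lower with rTFF2, but mouse 4 by only 0.11 against 0.57 to 0.65 in the other mice, and the groups overlapped. The difference was -0.48 (SE 0.10, adjusted p = 0.0146). Mrps23, a protein found only in mitochondria, had the smallest adjusted p of all members. It was 9.55, 9.32, 9.45 and 9.48 without and 9.14, 8.94, 8.83 and 9.02 with rTFF2, so the groups were clearly apart, and the difference was -0.47 (SE 0.07, adjusted p = 0.0043), or 72.4% of the control. A second probe set of Mrps23, with a lower mean signal, differed by only 0.01 (adjusted p = 0.95), and with the probe sets of each gene averaged the Mrps23 call was lost (-0.23, adjusted p = 0.056).

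Mrps6 has a bacterial counterpart in the small subunit platform. It was 6.38, 6.80, 5.94 and 6.09 without and 5.70, 6.11, 5.61 and 5.93 with rTFF2. The control cultures spread widely between mice and the groups overlapped, so that the difference of -0.46 (SE 0.11, adjusted p = 0.0204) did not pass without the block (adjusted p = 0.113). Mrps30 is named for the small subunit but is built into the large subunit. It was 7.36, 7.30, 7.53 and 7.42 without and 7.07, 7.16, 7.08 and 7.02 with rTFF2, with no overlap. The difference was -0.32 (SE 0.08, adjusted p = 0.0229). Mrps26, found only in mitochondria, was 8.64, 8.73, 8.63 and 8.48 without and 8.22, 8.35, 8.34 and 8.38 with rTFF2, again with no overlap. It fell by 0.30 (SE 0.08, adjusted p = 0.0327). The remaining small subunit gene that fell was Mrps22, by 0.27 (adjusted p = 0.0301, and 0.126 without the block).

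**Figure D2:**
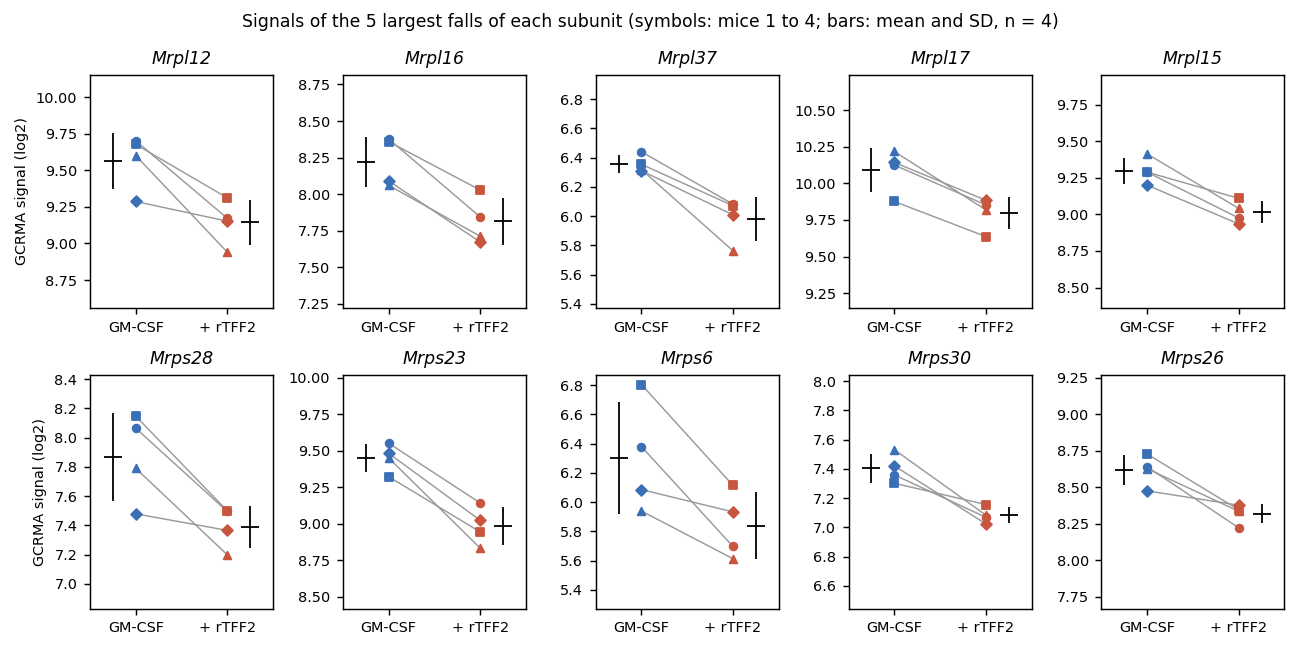
GCRMA log2 signal of the 5 Mrpl genes (upper row) and the 5 Mrps genes (lower row) with the largest falls among those past the threshold and lower in 4 of 4 mice. Lines join the cultures of a mouse, with GM-CSF alone on the left and GM-CSF plus rTFF2 on the right, and bars give the mean and SD (n = 4). Every line slopes down. The panels have different vertical scales.

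Of the 5 members with a difference above 0, none passed the threshold. Mrps25, a small subunit protein of mitochondria, had the highest value, 0.14 (adjusted p = 0.296), with 8.75, 9.16, 8.91 and 8.73 in the control and 9.16, 9.18, 8.89 and 8.89 in the rTFF2 cultures. Mouse 1 gave most of that difference and mouse 3 went the other way. A dimmer probe set of Mrps25, with a mean log2 signal of 4.05, was itself called higher, by 0.40 (adjusted p = 0.0335, and 0.125 without the block). With the probe sets averaged the gene was called higher (adjusted p = 0.0488). That average also includes a probe set with a mean of 2.56, below background. Mrpl45, a protein at the tunnel exit that anchors the ribosome to the inner membrane, followed with 0.12, and Mrpl49, Mrpl55 and Mrpl27 lay between 0.03 and 0.06.

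More than 1 probe set was present for 33 of the 74 members. The 16 genes that fell had 14 further probe sets, of which 10 had a difference below 0. Of the 14, 10 were above background, 8 of these were negative, 3 passed the threshold as lower and 0 as higher. Those 3 all belong to Mrpl15, with differences of -0.28, -0.34 and -0.50. Another probe set of Mrpl15 above background gave 0.04, so the probe sets of this gene disagreed. That probe set, the one that stands for the gene and the one at -0.34 all carry the manufacturer's mark for probes that may match other transcripts. Over all members there were 53 further probe sets, 36 of them above background, of which 8 were called lower and 2 higher. The 5 beyond Mrpl15 that were lower belong to Mrpl3, Mrpl19, Mrpl28 and Mrpl50, which did not pass by their brightest probe set. The 2 that were higher were the one of Mrps25 and one of Mrps9, with a mean log2 signal of 4.36 and a difference of 0.46 (adjusted p = 0.0373), where the 3 brighter probe sets of Mrps9 lay between -0.28 and -0.10.

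Proteins at the same place in the ribosome were also compared. For scale, 13.3% of all genes and 18.5% of genes above background fell. The 29 measured Mrpl genes with bacterial counterparts held 7 that fell (24.1%), with a median of -0.21. The 18 without counterparts held 3 (16.7%), with a median of -0.14. In the small subunit 2 of 15 genes with bacterial counterparts fell (13.3%, median -0.11) and 3 of 9 without (33.3%, median -0.15). The list without counterparts includes Mrps18b, although it is a homologue of a bacterial protein, as described below. Of the 4 measured stalk genes 2 (50%) fell, Mrpl12 and Mrpl11. Mrpl11 sits at the stalk base. It was 9.38, 9.59, 9.42 and 9.35 without and 9.27, 9.30, 8.94 and 9.13 with rTFF2, with no overlap. The difference was -0.27 (SE 0.08, adjusted p = 0.0477, and 0.0742 without the block), which became -0.17 (adjusted p = 0.179) with its probe sets averaged. That average includes a probe set with a mean of 3.40, just below background. Mrpl10, which ties the copies of Mrpl12 to the ribosome, was 7.31, 7.27, 7.25 and 7.50 without and 7.15, 7.21, 7.14 and 7.24 with rTFF2. The groups were narrowly apart, yet the difference of -0.15 did not pass (adjusted p = 0.168). Of 6 genes of the central protuberance, which links the subunits, 1 (16.7%) fell (Mrpl38, median of the 6 -0.22). Of 8 genes around the exit tunnel 1 (12.5%) fell (Mrpl17, median -0.14). Without the mouse as a block, genes that fell numbered 1 for large subunit proteins without counterparts and 1 for small subunit proteins with them. The stalk then held 1 and the central protuberance 0. In that fit 11.2% of all genes and 15.4% of genes above background fell. These groups hold few genes, and differences between them were not tested.

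Mammals have 3 homologues of a single bacterial small subunit protein, Mrps18a, Mrps18b and Mrps18c, of which the first is built into the large subunit. Their differences were -0.13, -0.16 and -0.07, and none passed the threshold (adjusted p = 0.309, 0.298 and 0.472). Mrps18c was lower in 4 of 4 mice and the other homologues in 3 of 4, with mouse 4 the exception.

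Within each mouse the medians of the large and small subunit genes lay close together. The median difference of the 47 Mrpl genes was -0.16, -0.13, -0.29 and -0.09 in mice 1 to 4, a mean of -0.17 ± 0.09 (SD, n = 4 mice). That of the 27 Mrps genes was -0.16, -0.13, -0.27 and -0.01, a mean of -0.14 ± 0.11. The Mrpl median minus the Mrps median was -0.0033, 0.0003, -0.0147 and -0.0795, or -0.02 ± 0.04, so that it stayed within the spread between mice and no order of the subunits was resolved. All genes together had medians of -0.02, -0.01, -0.02 and -0.02 in the same mice.

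The mice differed more than the subunits did. In mouse 3, 45 of 47 Mrpl and 27 of 27 Mrps genes were lower with rTFF2, in mouse 1 40 and 25, in mouse 2 40 and 20, and in mouse 4 31 and 14. The rTFF2 array of mouse 4 also had the highest median signal, 4.20 against 4.14 on the other rTFF2 arrays and 4.09 to 4.12 on the control arrays. With every array centred on its median, the Mrpl medians became -0.19, -0.18, -0.31 and -0.17 and the Mrps medians -0.19, -0.18, -0.30 and -0.09, and the genes that fell numbered 17 Mrpl and 9 Mrps, 35.1% of members, while 17.0% of all genes and 22.3% of those above background were then called lower. Members lower in 4 of 4 mice numbered 34, or 48.9% of Mrpl and 40.7% of Mrps genes, against 24.6% of all genes and 26.5% of those above background. Members higher in 4 of 4 mice numbered 0, against 21.9% and 32.1%. The 4 rTFF2 values lay wholly below the 4 control values for 12 Mrpl and 5 Mrps genes, 23.0% of members, against 13.8% of all genes and 16.3% of genes above background. Wholly above they lay for 0 members, against 13.6% and 21.0%.

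Sorting genes by where the protein sits changed little. With Mrps18a and Mrps30 counted in the large subunit, 11 of 49 large (22.4%) and 5 of 25 small subunit genes (20%) fell, with medians of -0.17 and -0.11. Over all genes 13.3% fell, and over genes above background 18.5%. Without the block 9 and 3 fell, with 11.2% and 15.4% of those genes. All other genes were placed by name, among them Mrps36, which was in none of the lists by bacterial counterpart or place.

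**Figure D3:**
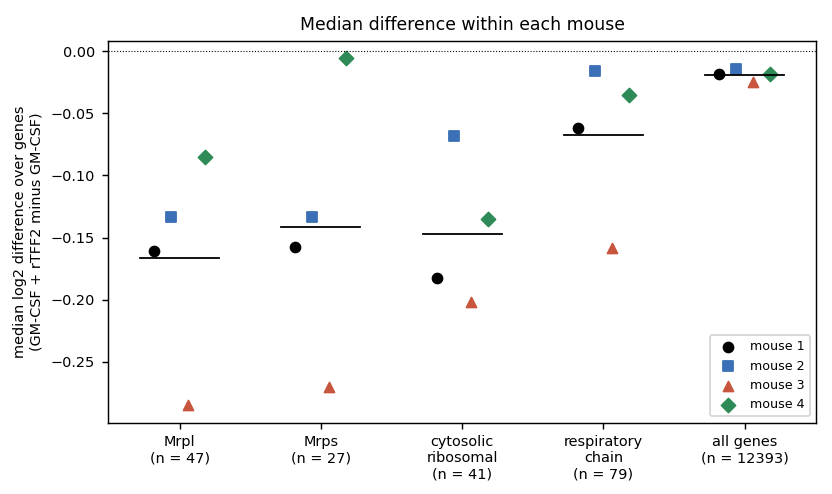
Median log2 difference, rTFF2 minus control culture, over the genes of each list within each of the 4 mice (symbols), with horizontal bars at the mean of the mice. Mrpl and Mrps genes lie below 0 in every mouse, lowest in mouse 3 and highest in mouse 4, and all genes together lie close to 0.

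Sequence before the transcription start was examined because nuclear genes for mitochondrial proteins are known to share binding sites for nuclear respiratory factors. RefSeq promoter windows of 300 bases on GRCm38.p6, 250 before and 50 after the annotated start, were found for 65 members (71 windows). Letters were matched on both strands with overlaps allowed. The core of the NRF1 site (GCGC, then A and any base, then GCGC) was present in 16.9% of member windows, in 11.0% of the windows of genes above background and in 4.60% of all 32851 windows. An ETS site, CCGGAAG, to which GABP binds, was present in 33.8%, 19.4% and 8.86%. The YY1 core, AAGATGGC, was in 15.5%, 4.85% and 2.75%. The CCAAT box (letters CCAAT) was in 39.4%, 37.5% and 37.4%, the E-box CACGTG in 9.86%, 10.5% and 7.15%, and the GC box GGGCGG in 54.9%, 63.7% and 35.7%. Member windows thus held the first 3 of these motifs more often than those of other expressed genes, as a description of the letters only. Mrpl and Mrps windows held the NRF1 core at 19.6% and 12.0%, the ETS letters at 30.4% and 40.0% and the YY1 core at 13.0% and 20.0%. Of 12 windows of members that fell 4 held the NRF1 core and 4 the ETS letters, and of 59 windows of members that did not pass 8 and 20 did. The 4 windows with an NRF1 core among genes that fell are shown from 90 bases before the start to 10 bases after it, read along the gene's strand, with the NRF1 core and ETS letters in capitals on either strand.
Mrpl12, chr11:120484547-120484646, plus strand: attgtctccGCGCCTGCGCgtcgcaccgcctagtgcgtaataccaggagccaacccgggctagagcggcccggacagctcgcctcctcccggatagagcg
Mrpl17, chr7:105811078-105811177, minus strand: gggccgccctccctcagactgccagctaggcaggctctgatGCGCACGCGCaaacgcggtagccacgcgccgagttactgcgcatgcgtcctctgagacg
Mrpl9, chr3:94443246-94443345, plus strand: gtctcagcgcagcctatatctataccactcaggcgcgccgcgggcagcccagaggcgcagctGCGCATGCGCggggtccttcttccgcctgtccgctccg
Mrps26, chr2:130563667-130563766, plus strand: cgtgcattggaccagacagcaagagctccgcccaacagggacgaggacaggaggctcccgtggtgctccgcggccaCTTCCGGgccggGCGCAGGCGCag
The core begins 81 bases before the start in Mrpl12, 49 in Mrpl17, 28 in Mrpl9 and 2 in Mrps26, where the ETS letters begin 14 bases before it. Whether a factor binds there in these cells was not measured.

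The remaining machinery of mitochondrial translation, in 5 lists of 41 measured genes, held 13 genes that fell (31.7%) and 2 that rose (4.88%), with a median of -0.18. Over all genes 13.3% fell and 14.5% rose, and over genes above background 18.5% and 22.8%. Among 4 ribosomal proteins without an Mrp symbol 2 (50%) fell. Gadd45gip1 (CRIF1), at the tunnel exit, was 7.70, 7.58, 7.86 and 7.88 without and 7.28, 7.29, 7.40 and 7.77 with rTFF2, lower in every mouse though the groups overlapped (difference -0.32, adjusted p = 0.0276, and 0.092 without the block). With its probe sets averaged, the difference of Gadd45gip1 was -0.03 (adjusted p = 0.835). Chchd1 was 10.38, 10.42, 10.41 and 10.24 without and 10.10, 10.20, 10.00 and 10.01 with rTFF2, with the groups apart (-0.28, adjusted p = 0.0251). Dap3, at -0.15, and Ptcd3, at -0.07, did not pass.

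Of 8 measured translation factors and mRNA-binding proteins 2 (25%) fell, Slirp by 0.39 (adjusted p = 0.0183) and Lrpprc by 0.32 (adjusted p = 0.0189, and 0.086 without the block). The proteins of these genes form a complex that protects mitochondrial mRNAs. Slirp was 10.38, 10.50, 10.46 and 10.42 without and 10.10, 10.04, 9.84 and 10.22 with rTFF2, and the groups did not overlap. Of 8 mitochondrial aminoacyl-tRNA synthetases, which charge tRNAs with amino acids, 5 (62.5%) fell and 0 rose. At an unadjusted p below 0.05 in limma, 6 were lower and 0 higher. Fars2 fell by 0.45 (adjusted p = 0.0194), Sars2 by 0.37 (adjusted p = 0.0122) and Iars2 by 0.36 (adjusted p = 0.00855). Iars2 was 8.85, 8.93, 8.86 and 8.72 without and 8.50, 8.50, 8.58 and 8.35 with rTFF2, wholly apart. Sars2, with means of 3.44 and 3.07, and Ears2, with 3.44 and 3.15, were above background only in the control cultures and below it with rTFF2, so that they entered the count through the group where they were high. With dim probe sets filtered out, 3 synthetases fell.

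Among 15 factors of ribosome assembly and rRNA modification 2 (13.3%) fell and 1 (6.67%) rose, against 18.5% and 22.8% of genes above background. Tfb1m, the methyltransferase of the small subunit rRNA, changed most. It was 7.35, 7.10, 7.49 and 7.25 without and 6.66, 6.52, 6.49 and 6.55 with rTFF2. The groups were far apart, and the difference of -0.74 (SE 0.09, adjusted p = 0.00141), or 59.8% of the control, also passed with the Actb covariate (adjusted p = 0.0325). Noa1, a GTPase of small subunit assembly, fell by 0.39 (adjusted p = 0.0334, and 0.287 without the block). Mtg2, a GTPase of large subunit assembly, rose by 0.26 (adjusted p = 0.0461, and 0.0793 without the block) from 4.40, 4.36, 4.12 and 4.26 to 4.70, 4.43, 4.42 and 4.64. Its groups were narrowly apart.

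Among 6 genes of mitochondrial DNA maintenance and transcription 2 (33.3%) fell and 1 (16.7%) rose. Tfam, which packages mitochondrial DNA, fell by 0.36 (adjusted p = 0.00929), and Tfb2m, a transcription initiation factor, by 0.29 (adjusted p = 0.0277). Polg, the catalytic subunit of the mitochondrial DNA polymerase, rose in every mouse. It was 5.71, 5.93, 5.39 and 5.34 without and 6.75, 6.44, 6.48 and 6.56 with rTFF2, a difference of 0.96 (SE 0.12, adjusted p = 0.00187) with the groups wholly apart. Polg was called higher in every alternative that was run.

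Of 9 genes for regulators of mitochondrial biogenesis 0 passed in limma, with 2 higher and 1 lower at an unadjusted p below 0.05. Myc, which drives growth genes, was 9.48, 9.15, 9.55 and 9.58 without and 8.84, 8.86, 9.19 and 9.56 with rTFF2. Mice 1 to 3 were lower and mouse 4 was almost level (-0.32, adjusted p = 0.063). Nrf1 differed by 0.27 (adjusted p = 0.109), Gabpa by -0.12 (adjusted p = 0.236), Gabpb1 by 0.28 (adjusted p = 0.206) and Yy1 by -0.07 (adjusted p = 0.514). Ppargc1b, Pprc1 and Esrra differed by 0.32, 0.09 and -0.05, and the coactivator gene Ppargc1a was below background in both groups. Calls appeared under some alternatives. Myc was called lower with a further quantile normalization (adjusted p = 0.0478), median centring (adjusted p = 0.0308) or a trended and robust prior (adjusted p = 0.041) and without mouse 4 (adjusted p = 0.0367). Gabpb1 was called higher with the Actb covariate (0.88, adjusted p = 0.0388) and Gabpa lower with an offset on the linear scale (-0.11, adjusted p = 0.0301).

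**Figure D4:**
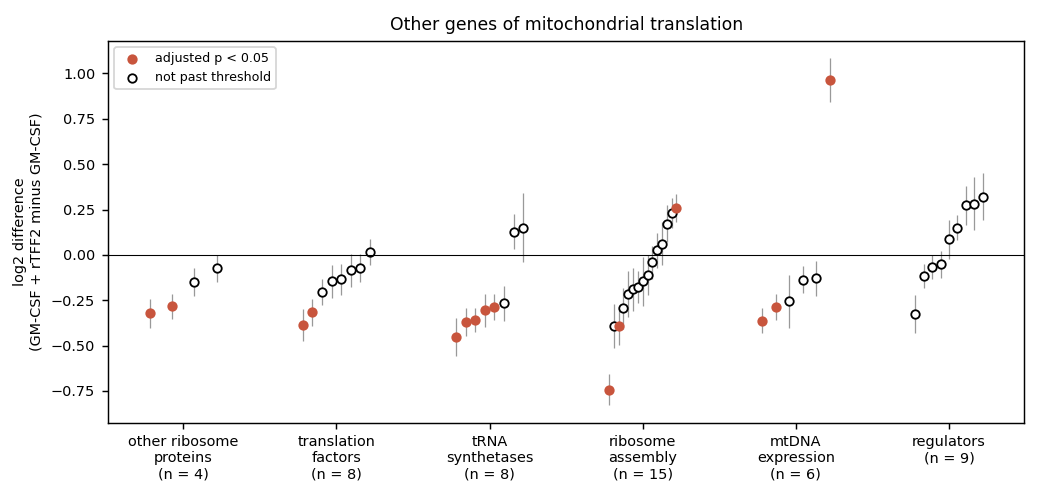
Fitted log2 difference, rTFF2 minus control cultures, with its standard error, for the measured genes of each list, ordered within the list. Filled circles passed the threshold. Tfb1m is the lowest point, in the assembly list, and Polg at 0.96 is the highest.

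Cytosolic ribosomal proteins and respiratory chain subunits, a list that here includes genes of ATP synthase, are shown for scale. Among genes above background 18.5% were called lower and 22.8% higher, and 15.4% lower without the block. Of 41 cytosolic ribosomal protein genes 9 (22%) fell and 0 rose, with 16 lower and 0 higher at an unadjusted p below 0.05 in limma. Their median of -0.15 lies between those of Mrps and Mrpl genes, and 11 fell without the mouse as a block. The fitted difference was below 0 for 97.6% of them, 73.2% were lower in 4 of 4 mice and 43.9% lay wholly below the control values. For the 74 members these shares were smaller, at 93.2%, 45.9% and 23.0%. Of 79 nuclear genes in the respiratory chain list 8 (10.1%) fell and 1 (1.27%) rose, with a median of -0.07, and 4 fell without the block. For this list the shares below 0, lower in 4 of 4 mice and wholly below the control values were 69.6%, 31.6% and 13.9%. The difference between these lists and the mitochondrial ribosomal proteins was not tested.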

How the data were processed

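The deposited values, made by the authors with GCRMA, were log2 signals of 22690 probe sets on 8 Affymetrix mouse arrays, 1 per culture. Versions in the submitters' processing notes were 2.30.0 for GCRMA and 1.36.0 for affy. GCRMA corrects background by probe base content and quantile normalizes, so dim signals and a shift shared by most genes are compressed. Scanner files were not used here. After 64 control probe sets were left out, 22626 were fitted by limma 3.58.1 under R 4.3.3, with the mouse as a block, empirical Bayes moderation and Benjamini-Hochberg adjustment, at a threshold of 0.05. The methods name limma and no block. Gene symbols came from the platform annotation, and all 74 member identifiers were found in the RefSeq gene table with 0 differing symbols.

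Genes named are the 5 largest changes each way per subunit among members past the threshold with the same sign in 4 of 4 mice, fixed members (Mrps18a to Mrps18c, Mrps30, Mrpl10 to Mrpl12), up to 3 each way per other list, and all regulators. Others named were chosen after their values were seen. Members and lists were chosen with earlier results of these data known. The pairing comes from the labels. Deviations of the cultures from their group mean, over 12724 probe sets above background, correlated at 0.04 to 0.54 within a mouse and at -0.55 to 0.35 between mice. For mice 2 and 4 the value within the mouse (0.54 and 0.39) was above those with every other mouse. For mice 1 and 3 it was not, at 0.04 and 0.32 within the mouse and up to 0.16 and 0.35 with another. Alternatives were no block, a filter on dim probe sets, a further quantile normalization, median centring, an offset of 32 and a trended and robust prior. Others were array weights, a threshold of 0.01, an Actb covariate, leaving out each mouse and the mean of a gene's probe sets, those below background included. Precision is limited by 4 mice. With the mouse as a block, a p-value sets the mean difference against the spread of the 4 paired differences, moderated over all probe sets. Without the block it sets that difference against the spread between cultures of a group, moderated in the same way.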

Additional observations from a re-analysis of the deposited data

Results flagged for a closer look

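Of 78 groups of 4 cultures checked over 39 results, 1 held a culture far from the others, where chance alone would flag about 1 in 20. The log2 signal of Gabpa in the rTFF2 culture of mouse 4 was 9.83, and the nearest of the other rTFF2 cultures was at 9.94, a gap of 0.88 of the range of the group. No cause was tested.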

How the results depend on the processing

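Without the mouse as a block, 8 Mrpl and 4 Mrps genes fell, 1 of the other ribosomal proteins fell in place of 2 and 0 assembly factors rose in place of 1. Among the 5 lists of mitochondrial translation genes no other count moved by over 1.5 times when the pairing by mouse was dropped, and 6 of 37 named results lost their call. With a threshold of 0.01, fallen genes numbered 1 Mrpl, 1 Mrps, 0 other ribosomal proteins and 0 translation factors. The other lists held 1 fallen synthetase, 1 assembly factor and 1 gene of the mitochondrial DNA list. At that threshold 0 assembly factors rose, and 1005 of all genes were higher and 782 lower. Lower calls were then 2.7% of members, against 6.31% of all genes and 9.8% of genes above background. With the Actb covariate beside the block, fallen genes numbered 0 Mrpl, 0 Mrps, 0 other ribosomal proteins, 0 translation factors, 0 synthetases and 1 of the mitochondrial DNA list, 0 assembly factors rose, and 523 of all genes were higher and 490 lower. That fit has fewer residual degrees of freedom and a covariate that moves with the groups, and the cause of the loss was not tested. Median centring gave 17 fallen Mrpl genes, 4 fallen assembly factors and 0 that rose. The offset gave 3 fallen synthetases, 1 fallen assembly factor and 0 that rose. The filter on dim probe sets gave 3 fallen synthetases. Averaging the probe sets of a gene gave 1 Mrps gene that rose (Mrps25), 1 fallen ribosomal protein of the other list, 3 fallen synthetases and 0 assembly factors that rose. A further quantile normalization and the trended prior each gave 0 assembly factors that rose.

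With each mouse left out in turn, fallen genes numbered 2 to 7 for Mrpl, 1 to 4 for Mrps, 0 to 1 for the other ribosomal proteins, 0 to 2 for translation factors, 2 to 3 for synthetases, 1 to 3 for assembly factors and 1 to 2 for the mitochondrial DNA list. Assembly factors that rose numbered 0 to 2, and over all genes 1211 to 1572 were higher and 995 to 1418 lower. The Mrpl median lay between -0.22 and -0.15 and the Mrps median between -0.17 and -0.06 over all alternatives, leaving out a mouse included. No called result of a named gene changed sign. Among named genes that did not pass, Mrps18b turned from -0.16 to 0.05 with the Actb covariate, and with probe sets averaged Ppargc1a turned from 0.15 to -0.03 and Yy1 from -0.07 to 0.06.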
